A study of Mus musculus with 8 samples.

Results

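The libraries of 2 single-mutant mouse genotypes, Flt3-ITD and Smc3 del/+, were set against each other by ATAC-seq, an assay in which the transposase Tn5 cuts and tags DNA it can reach, so that peaks of tagged DNA mark open chromatin. The groups were chosen by title, with 2 libraries per genotype and 4 of the 8 libraries of the series in the comparison. The Flt3-ITD mice carried the Flt3-ITD allele and Mx1-Cre. The Smc3 del/+ mice carried 1 deleted and 1 wild-type Smc3 allele and Mx1-Cre. Mx1-Cre is a recombinase under an interferon-inducible promoter, and injection of PIpC switches it on in blood-forming cells and in other tissues that respond to interferon. Both genotypes therefore shared Mx1-Cre and PIpC, and all cells were taken 4 weeks after the injection. Marrow cells were bound to magnetic beads through c-Kit (Cd117), the stem cell factor receptor of blood stem and progenitor cells, and 50000 cells went into each sample. The other genotypes were control mice, Smc3 fl/+ without Mx1-Cre, and mice with Mx1-Cre, a Smc3 deletion and Flt3-ITD together, called the combined genotype below. The genotype label of the combined mice reads Smc3 fl/del and their title Smc3 heterozygous. The labels used here give no ages.

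The titles and genotype labels of the 4 libraries compared give the same genotype, whereas their free-text descriptions are exchanged: those of the Flt3-ITD libraries name a floxed Smc3 allele, and those of the Smc3 del/+ libraries name Flt3-ITD. Titles were followed throughout. Exchanging the names would exchange the direction of every difference given here, and the Smc3 and Flt3 loci were not analysed here as a check of the names. Marrow came from individual mice, per the labels, but whether both libraries of a genotype stand for 2 animals is not stated, and p-values cover only the spread seen between libraries, which may be technical.

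Smc3 is a core subunit of cohesin, the ring-shaped complex that holds sister chromatids together and folds chromatin into loops by extruding DNA between sites bound by CTCF. Flt3 is a receptor tyrosine kinase of early blood progenitors, and the internal tandem duplication (ITD) keeps the kinase active without its ligand, with STAT5 among the factors that it activates. Both cohesin subunits and FLT3 are recurrently mutated in acute myeloid leukemia.

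The 4 lists held between 59492 and 64430 autosomal peaks, the control lists 71621 and 62211, and the combined lists 78116 and 77629. Flt3-ITD lists held 64430 and 61542 peaks, and Smc3 del/+ lists 59492 and 60894. Both Flt3-ITD lists were longer than both Smc3 del/+ lists, with means of 62986 ± 2042 and 60193 ± 991 (SD, n = 2 each), and the difference of 2793 peaks had an exact two-sided permutation p of 0.333, the smallest that 2 libraries against 2 can give. The bases covered overlapped between the genotypes, at 36.6 and 35.0 Mb in Flt3-ITD and 35.2 and 35.8 Mb in Smc3 del/+ (exact p = 1). Their difference of 0.338 Mb became -0.464 Mb without Flt3-ITD replicate 1 and -0.00135 Mb without Smc3 del/+ replicate 1. Read depth is unknown for these lists, so a missing call may reflect fewer reads or less open chromatin, which cannot be told apart here. In bulk cells, fewer open cells and less opening per cell cannot be told apart either.

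The peaks of the 4 lists fell into 89044 autosomal regions, a region being a stretch of peaks that overlap by at least 1 bp. All 4 libraries called 36821 regions. At least 1 genotype had a call in both of its libraries at 57662 regions. Of these, 5164 were called in both Flt3-ITD libraries and neither Smc3 del/+ library (8.96%), and 4680 in both Smc3 del/+ libraries and neither Flt3-ITD library (8.12%). These are called Flt3-ITD-only and Smc3 del/+-only regions below. Both directions were thus of like size, and Flt3-ITD-only regions made up 52.5% of the 9844 (95% exact binomial interval 51.5% to 53.4%, counting error only). With an equal number of peaks per list the order turned, at 4437 Flt3-ITD-only and 4959 Smc3 del/+-only regions. Among peaks at the highest score alone the split was wider, at 2655 against 643, but lower-scored peaks of the other genotype were then left out. With all peaks, only 149 Flt3-ITD-only and 235 Smc3 del/+-only regions had the score 1 in both libraries. Most of the 2655 thus lay in regions with a Smc3 del/+ peak of lower score. The score, which the authors gave each peak, was exactly 1 in 32.3% and 32.1% of the Flt3-ITD peaks against 27.3% and 27.5% of the Smc3 del/+ peaks. What else the score adds to the wider split was not tested.

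Many calls were not repeated by the other replicate. A further 25935 regions were called in 1 library alone, from 5603 to 7798 per library, and 5447 in 1 library of each genotype. Of the regions called in Flt3-ITD replicate 1 and in no Smc3 del/+ library, 39.8% were also called in Flt3-ITD replicate 2, and 45.7% in the reverse order. The shares were 45.5% and 42.2% for the Smc3 del/+ replicates. By contrast, a region that both libraries of the other genotype called was repeated in the second replicate in 91.2% to 95.1% of cases. The Jaccard index, the bases shared by 2 lists over the bases covered by either, was 0.359 for the Flt3-ITD pair and 0.348 for the Smc3 del/+ pair. It lay between 0.313 and 0.316 for the 4 pairs across genotypes, below both pairs within a genotype.

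Regions called in one genotype only had peaks about as wide as shared ones, with lower scores. The median peak bases per region were 435 and 438 bp in Flt3-ITD-only regions, against 433 and 436 bp in the same libraries for regions called in all 4. In the Smc3 del/+ libraries they were 473 and 458 bp in Smc3 del/+-only regions, against 450 and 445 bp. Scores of one-genotype regions were low within their lists, with median percentiles of at most 27.3 in the Flt3-ITD libraries and of 33.0 and 35.9 in the Smc3 del/+ libraries, while regions called in all 4 had medians from 65.1 to 83.9. A peak of the other genotype lay within 1 kb of 26.1% of the Flt3-ITD-only regions and of 24.2% of the Smc3 del/+-only regions. The nearest region called in all 4 libraries was at a median distance of 7537 bp from Flt3-ITD-only and of 9521 bp from Smc3 del/+-only regions. It lay within 10 kb for 56.9% and 50.9%, respectively, against 60.1% of all regions that could have passed.

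The control and combined libraries did not enter this choice, and with all deposited peaks they separated the 2 sets of regions. Flt3-ITD-only regions were called in 57.7% and 46.0% of cases in the control libraries and in 74.6% and 74.0% in the combined libraries. Smc3 del/+-only regions were called in 71.0% and 50.5% of cases in the control libraries and in 29.0% and 28.4% in the combined libraries. Both combined libraries thus lay above both control libraries for Flt3-ITD-only regions and below them for Smc3 del/+-only regions.

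The means were 51.9% ± 8.27 in control and 74.3% ± 0.438 in the combined genotype for Flt3-ITD-only regions, a difference of 22.4 percentage points (SD, n = 2 each; exact two-sided permutation p = 0.333, the smallest possible). For Smc3 del/+-only regions they were 60.8% ± 14.5 and 28.7% ± 0.393, a difference of -32.1 points (SD, n = 2 each; exact permutation p = 0.333). All regions that could have passed had 85.9% ± 4.13 and 86.7% ± 0.368, and these groups overlapped (SD, n = 2 each). The 13928 regions called in 1 Flt3-ITD library alone also separated the groups, by 17.7 points. Control called 30.2% and 23.4% of them and the combined genotype 45.1% and 44.0%. The gap was thus not particular to regions that both Flt3-ITD libraries called. The 12007 regions called in 1 Smc3 del/+ library alone overlapped, at 35.8% and 24.5% against 26.1% and 26.3% (-3.99 points). The combined lists were the longest of the series, yet held the fewest Smc3 del/+-only regions of the 4 libraries. They also stood apart on the sex chromosomes, which were left out of the regions, with 294 and 282 peaks on Y and 2102 and 2185 on X, against 84 to 98 and 2228 to 2601 in the other 6 libraries. The combined and control libraries thus differed in more than the 2 named alleles, and the part of this in the shares was not tested. Exact intervals for a share reached at most 1.44 points to either side, less than the gap between the control libraries. Among peaks at the highest score alone, 643 regions counted as Smc3 del/+-only, though a Flt3-ITD peak of lower score could lie in them. These no longer separated the groups. Control called 57.9% and 31.9% of them at that score and the combined genotype 41.4% and 40.3%, a difference of -4.04 points. Among the upper 50% of peaks by score the difference for Smc3 del/+-only regions was -18.0 points. Without Smc3 del/+ replicate 1, the 2 differences were 15.4 and -14.9 points, and without Smc3 del/+ replicate 2 they were 16.6 and -15.1 points.

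**Figure D1:**
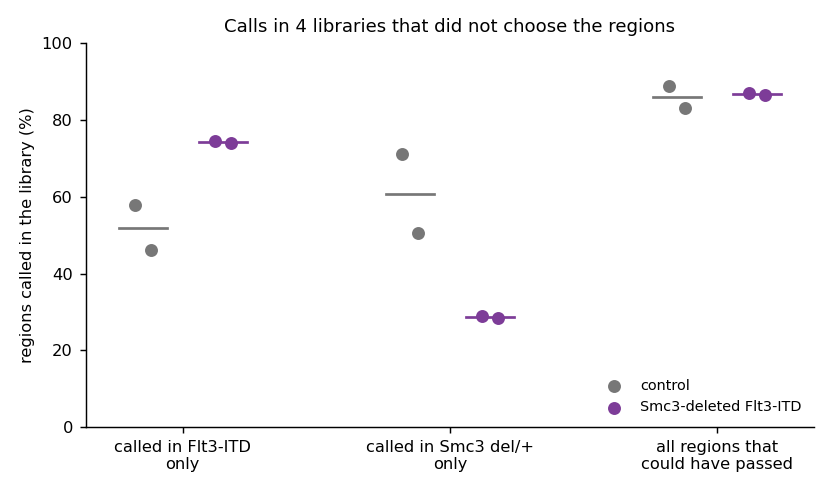
Share of regions (%, y axis) called in each control library and each combined-genotype library (points) for Flt3-ITD-only regions, Smc3 del/+-only regions and all regions that could have passed, with lines at the mean of 2 libraries. The combined libraries lie at 74.6% and 74.0% for Flt3-ITD-only regions and at 29.0% and 28.4% for Smc3 del/+-only regions, outside the control range in opposite directions.

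Taken region by region, 1330 Flt3-ITD-only regions (25.8%) were called in both control and both combined libraries, so that only Smc3 del/+ lacked them. A further 954 (18.5%) were called in both combined and neither control library. Only 173 (3.35%) were in both control and neither combined library, and 363 (7.03%) in none of these 4. Smc3 del/+-only regions had the opposite leading pattern. Both control libraries and neither combined library called 1209 of them (25.8%), 472 (10.1%) were in all 4 of these libraries, 629 (13.4%) in none, and 151 (3.23%) in both combined libraries and neither control library.

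The pattern varied with peak width and score. Peaks fell into a narrow class, most often 350 to 400 bp wide, and a wide class around 1100 bp, with the fewest in between near 700 bp, a limit chosen after the widths were seen. The 661 Smc3 del/+-only regions that were at least 700 bp wide in both libraries were called in 78.7% and 56.3% of cases in control and in 24.2% and 24.1% in the combined genotype. The 2199 that were narrow in both were called in 64.9% and 48.2% against 32.7% and 32.7%. The separation was therefore larger among wide regions, at -43.3 against -23.8 points. Flt3-ITD-only regions differed less by width, with 24.6 points for the 570 wide and 19.8 points for the 2706 narrow regions. Only 149 Flt3-ITD-only regions had the score 1 in both libraries, and there the control shares of 58.4% and 69.1% overlapped the combined shares of 66.4% and 65.8%. The 235 Smc3 del/+-only regions at that score kept a gap, with 70.6% and 74.0% in control and 31.5% and 33.2% in the combined genotype.

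Single regions were named by a fixed rule, the 12 per direction with the highest scores, the wider first among ties, and with no peak of the other genotype within 1 kb. Coordinates are those of the files (mm9, counted from 1), and no gene, exon or intron was assigned because no mm9 annotation was used here. All 12 regions of a direction tied in score, so the choice among tied regions rested on the 1 kb limit and then on width. The Smc3 del/+-only regions of this kind were alike in the other libraries. Wide Smc3 del/+-only regions had the larger gap above, and the part of the choice by width in this likeness was not tested. All 12 Smc3 del/+-only regions were called in both control libraries and 11 in neither combined library. They were between 1402 and 2313 bp wide.

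The widest, chr11:105696507-105698819, had 816 and 2035 bp of peak in Smc3 del/+, 816 and 457 bp in control, and none in the Flt3-ITD and combined libraries. At chr2:6184318-6186155, Smc3 del/+ had 1466 and 1246 bp and control 1488 and 836 bp. At chr8:108344575-108346008, Smc3 del/+ had 1363 and 1434 bp and control 1004 and 1118 bp. Neither of these regions had a peak in the 4 libraries that carry Flt3-ITD. The exception among the 12 was chr3:116091445-116093534, with 2020 and 1312 bp in Smc3 del/+, 1404 and 547 bp in control and 442 and 1064 bp in the combined genotype. The remaining 8 were chr18:85053661-85055549, chr15:38472920-38474561, chr17:63660853-63662490, chr9:124052131-124053707, chr9:7789928-7791431, chr5:44594355-44595812, chr14:75071594-75073031 and chr1:96754462-96755863, which had from 400 to 1642 bp of peak in a Smc3 del/+ library and from 169 to 1451 bp in a control library.

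The 12 Flt3-ITD-only regions followed no single pattern. Both control libraries called 4 of them and neither control library 3, while both combined libraries called 4 and neither 6. They were between 370 and 1415 bp wide, so the 2 sets of 12 were unlike in width and their patterns are not compared like for like. The nearest region called in all 4 libraries lay from 1067 to 263018 bp away. For the 12 Smc3 del/+-only regions it lay from 2328 to 116712 bp away. At chr5:111236697-111237697, Flt3-ITD had 853 and 873 bp of peak, control 417 and 462 bp and the combined genotype 401 and 417 bp. Smc3 del/+ alone lacked a peak there, but a region called in all 4 libraries lay 1123 bp away. At chr3:127495805-127496355, Flt3-ITD had 549 and 484 bp and the combined genotype 382 and 425 bp, with no peak in control or Smc3 del/+. These 4 libraries with a peak are the ones that carry Flt3-ITD. A region called in all 4 libraries compared lay 1295 bp from it.

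Peaks of the Flt3-ITD libraries alone lay at chr18:83079704-83080424, with 701 and 709 bp, and at chr1:193246898-193247268, with 358 and 363 bp. Regions called in all 4 libraries compared lay 1661 and 4981 bp from them. At chr3:63468536-63469950, Flt3-ITD had 641 and 1415 bp, control none and 463 bp, and the combined genotype 345 and 378 bp. The other 7 were chr19:53384588-53385512, chr17:84582536-84583106, chr8:129371705-129372274, chr1:168747950-168748420, chr11:29449675-29450145, chr11:23977670-23978114 and chr6:129188222-129188591, with from 196 to 925 bp of peak in a Flt3-ITD library. Those at chr1:168747950-168748420 and chr11:29449675-29450145 had a peak under 300 bp in Flt3-ITD replicate 1 and did not pass the rule without such peaks.

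Peak number per 1 Mb window of the genome gave a measure that could be tested, since it varied little between replicates. This test was added after the data were seen. Peaks per window, plus 0.5 and scaled to the length of the list, were compared on the log2 scale with limma in the 1622 windows with a mean of at least 10 peaks over the 4 libraries. More peaks lay in Flt3-ITD in 144 windows (8.88%) and in Smc3 del/+ in 161 windows (9.93%) at a Benjamini-Hochberg adjusted p under 0.05. The median difference was 0.35 among the former, with sizes from 0.17 to 1.04, and -0.42 among the latter, with sizes from 0.16 to 2.28 (log2, Flt3-ITD minus Smc3 del/+). Over all windows tested the median was -0.0015.

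Limma drew the spread of nearly every window from the trend over all windows, so a p-value of a window rests on that common spread and not on its own 4 values. The counts fell to 72 and 79 windows without Flt3-ITD replicate 1, to 63 and 72 without Flt3-ITD replicate 2 and to 74 and 73 without Smc3 del/+ replicate 2, for more peaks in Flt3-ITD and in Smc3 del/+. Without the scaling to list length, 209 windows had more peaks in Flt3-ITD and 68 in Smc3 del/+, so that Flt3-ITD took 75.5% of the calls instead of 47.2%. Unscaled and without robust moderation of the spread, 0 windows passed in either direction (smallest limma adjusted p = 0.0835, 453 windows at an unadjusted p under 0.05), and all 22 windows named below lost their call. Without the variance trend 71 and 104 windows passed, and without the filter on peaks 57 and 78. The calls of single windows therefore depend on how the spread was modelled.

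The window with the largest difference was chr1:176000001-177000000. It held 5 and 3 peaks in Flt3-ITD against 18 and 22 in Smc3 del/+, 18 and 14 in control and 12 and 11 in the combined genotype. Flt3-ITD was the lowest of the 4 genotypes there, with a log2 difference of -2.28 ± 0.22 (SE; limma adjusted p = 2.19e-21), or 4.86-fold more in Smc3 del/+. At chr3:123000001-124000000, Flt3-ITD held 10 and 7 peaks and Smc3 del/+ 21 and 24, with 21 and 8 in control and 14 and 12 in the combined genotype (log2 -1.44 ± 0.18, limma adjusted p = 3.34e-13). The control libraries spanned nearly the whole range there. At chr12:84000001-85000000, both genotypes with Flt3-ITD were low: Flt3-ITD held 10 and 9 peaks and the combined genotype 10 and 10, against 19 and 19 in Smc3 del/+ and 23 and 18 in control (log2 -1.03 ± 0.18, limma adjusted p = 1.02e-06). The same order held at chr3:14000001-15000000, with 12 and 14 peaks in Flt3-ITD, 14 and 12 in the combined genotype, 23 and 24 in Smc3 del/+ and 23 and 18 in control (log2 -0.90 ± 0.16, limma adjusted p = 1.19e-06).

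Among the other windows with more peaks in Smc3 del/+, chr9:112000001-113000000 held 9 and 7 peaks in Flt3-ITD and 14 and 20 in Smc3 del/+. There control, with 22 and 14, and the combined genotype, with 18 and 20, lay at the Smc3 del/+ level. At chr1:23000001-24000000, Flt3-ITD held 16 and 16 peaks, Smc3 del/+ 29 and 27, control 26 and 20 and the combined genotype 22 and 22. The remaining 2 of the 8 largest, chr18:58000001-59000000 and chr15:44000001-45000000, had 9 and 6 against 12 and 14 peaks and 10 and 9 against 15 and 18. The former was no longer called without Flt3-ITD replicate 2 (limma adjusted p = 0.0738).

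In the opposite direction the largest difference was at chr8:33000001-34000000. It held 20 and 20 peaks in Flt3-ITD and 17 and 18 in the combined genotype, against 9 and 9 in Smc3 del/+ and 11 and 11 in control. Both genotypes with Flt3-ITD were thus high, with a log2 difference of 1.04 ± 0.18 (SE; limma adjusted p = 6.94e-07), or 2.06-fold more in Flt3-ITD than in Smc3 del/+. At chr2:169000001-170000000 the same order appeared at higher numbers, with 38 and 34 peaks in Flt3-ITD, 37 and 41 in the combined genotype, 19 and 20 in Smc3 del/+ and 23 and 20 in control (log2 0.80 ± 0.13, limma adjusted p = 4.98e-07). This last difference was smaller and not called among the upper 50% of peaks by score (log2 0.22, limma adjusted p = 0.346). At chr14:46000001-47000000, Flt3-ITD held 15 and 16 peaks and the combined genotype 16 and 18, against 7 and 8 in Smc3 del/+ and 11 and 9 in control (log2 0.94 ± 0.20, limma adjusted p = 0.000153).

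One window stood apart in the combined genotype. At chr3:25000001-26000000, Flt3-ITD held 31 and 25 peaks, Smc3 del/+ 17 and 13, and control 26 and 27, whereas the combined libraries held 2 and 4. Both genotypes with a Smc3 deletion thus lay below both control libraries (Flt3-ITD against Smc3 del/+ log2 0.82 ± 0.15, limma adjusted p = 2.77e-06). The other windows of the 8 with the largest excess in Flt3-ITD were chr1:100000001-101000000, with 29 and 28 against 14 and 16 peaks, chr5:39000001-40000000, with 14 and 15 against 8 and 8, chr15:54000001-55000000, with 17 and 16 against 10 and 9, and chr1:85000001-86000000, with 23 and 24 against 13 and 15. The window on chromosome 5 was no longer called without Flt3-ITD replicate 2 (limma adjusted p = 0.0642).

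**Figure D2:**
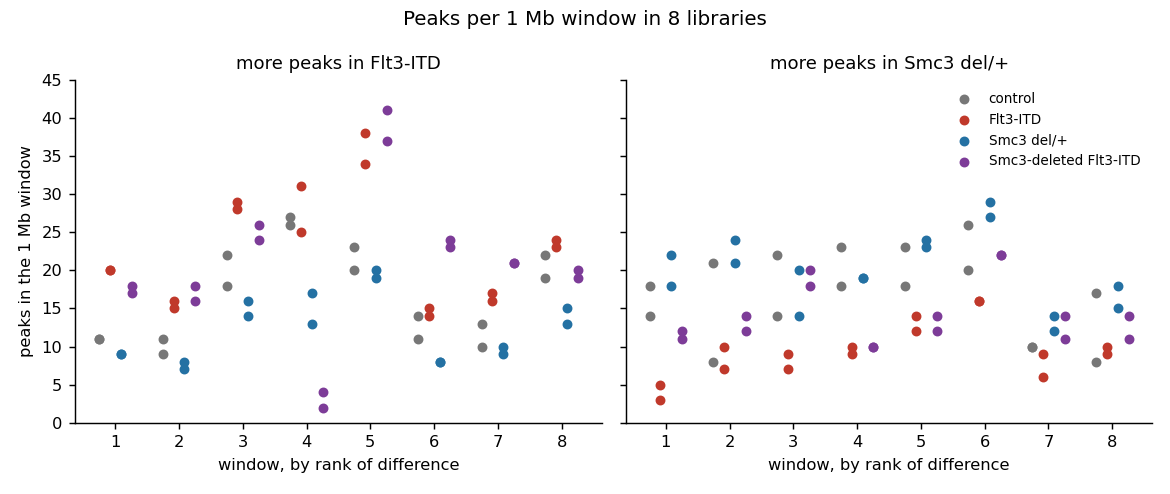
Peaks per 1 Mb window (y axis) in each of the 8 libraries (points, coloured by genotype) for the 8 windows with the largest difference in each direction, ordered by size along the x axis. In window 1 of the left panel both Flt3-ITD libraries hold 20 peaks against 9 in both Smc3 del/+ libraries, and in window 1 of the right panel 5 and 3 against 18 and 22.

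The windows with the most one-genotype regions were chosen from the same 4 libraries, so the difference between Flt3-ITD and Smc3 del/+ in them follows from the choice and is given without a test. The control and combined libraries had no part in it. Because a genotype was picked for being low in each window, libraries outside the choice are expected to lie above it. Their peak numbers are given as a description only. At chr17:47000001-48000000, 14 of 71 regions were Flt3-ITD-only. The window held 81 and 79 peaks in Flt3-ITD, 80 and 76 in control and 86 and 92 in the combined genotype, against 57 and 58 in Smc3 del/+. All 4 control and combined libraries lay above both Smc3 del/+ libraries. At chr2:72000001-73000000, 14 of 61 regions were Flt3-ITD-only, and Smc3 del/+ held 50 and 54 peaks where the other 6 libraries held from 72 to 75. At chr18:36000001-37000000, with 15 of 69 regions, Smc3 del/+ held 55 and 64 peaks and the other 6 libraries from 72 to 89.

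In the windows with the most Smc3 del/+-only regions, the control and combined libraries held more peaks, not scaled to list length, than both Flt3-ITD libraries. At chr5:149000001-150000000, where 18 of 70 regions were Smc3 del/+-only, Flt3-ITD held 58 and 61 peaks, Smc3 del/+ 79 and 77, control 86 and 67 and the combined genotype 74 and 73. At chr1:167000001-168000000, with 16 of 80 regions, Flt3-ITD held 68 and 72 peaks and the other 6 libraries from 77 to 87. At chr3:144000001-145000000, with 13 of 39 regions, Flt3-ITD held 28 and 31 peaks and the other 6 libraries from 36 to 41. In all 6 windows, the unscaled counts of the 4 control and combined libraries exceeded both libraries of the genotype that the choice made low. The combined lists were the longest, and scaled counts are not given here. Of the Smc3 del/+-only regions, the combined libraries called 1 and 5 of 18, 6 and 3 of 16, and 3 and 4 of 13. Control called 11 and 7, 13 and 8, and 10 and 8. Of the Flt3-ITD-only regions, the combined libraries called 9 and 11 of 14, 9 and 10 of 14, and 11 and 10 of 15. Control called 9 and 8, 8 and 9, and 9 and 4.

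The direction of the differences varied with how many peaks a window holds in control, which had no part in the comparison. Windows were split into 5 groups of similar size by their control peaks. In the group with the most (57 to 155), 47 windows had more peaks in Flt3-ITD (14.6%) and 15 in Smc3 del/+ (4.64%), and the median log2 difference was 0.043. In the group with 20.5 to 30 control peaks, 16 had more in Flt3-ITD (5.03%) and 51 in Smc3 del/+ (16.0%), with a median of -0.057. The group with the fewest (7.5 to 20) had 19 and 32 windows and a median of -0.053. Relative to list length, peak-dense windows thus leaned to Flt3-ITD and peak-sparse windows to Smc3 del/+, with medians far below the size of a called difference. Without the scaling to list length, the median was 0.012 in the group with the fewest control peaks, 0.0085 in the next and 0.11 in the group with the most, and none lay below 0. The scaling moves the log2 difference of every window by the same amount. The order of the medians therefore could not change, and its being the same is no check of it.

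**Figure D3:**
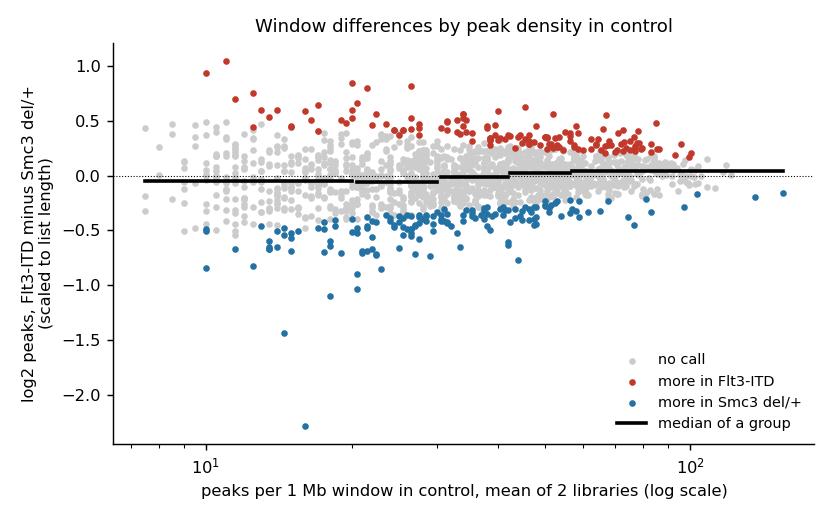
Difference in log2 peaks per 1 Mb window, Flt3-ITD minus Smc3 del/+ (y axis), against the mean number of peaks in the 2 control libraries (x axis, log scale), with 1 point per window, called windows in colour and black lines at the median of each of 5 groups of windows by control peaks. The medians run from -0.053 in the group with the fewest control peaks to 0.043 in the group with the most. Unscaled, they are 0.012 and 0.11.

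Peaks were narrower in Flt3-ITD than in Smc3 del/+. The median width was 423 and 425 bp in Flt3-ITD and 435 and 432 bp in Smc3 del/+, and the upper quartile 740 and 742 bp against 823 and 812 bp, with no overlap between the genotypes (difference of median widths -9.5 bp; exact two-sided permutation p = 0.333, the smallest possible). Wide peaks of at least 700 bp made up 26.1% and 26.3% of the Flt3-ITD lists and 29.3% and 28.6% of the Smc3 del/+ lists. Flt3-ITD lists held 16845 and 16191 wide peaks against 17424 and 17441, and 47585 and 45351 narrow ones against 42068 and 43453. The longer Flt3-ITD lists thus held more narrow and fewer wide peaks. Control lists, with 20.6% and 21.2% wide peaks, and combined lists, with 19.7% and 20.5%, lay below all 4 libraries compared.

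**Figure D4:**
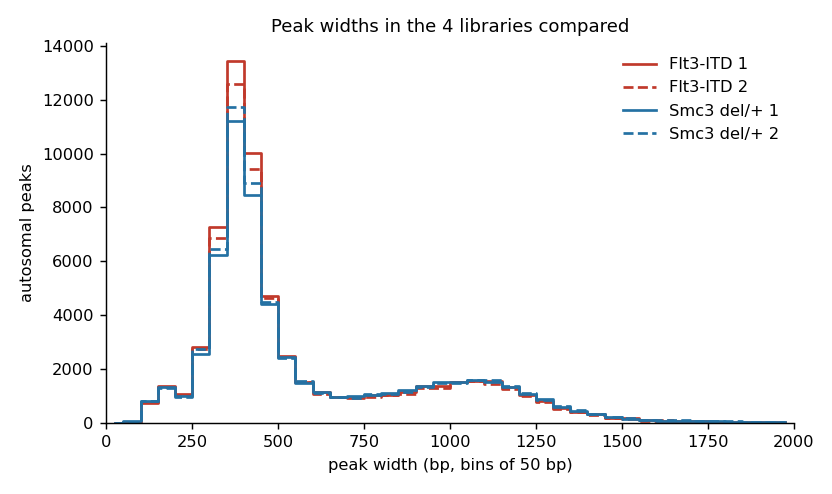
Number of autosomal peaks (y axis) by peak width (x axis, bins of 50 bp) in the 4 libraries compared, widths above 2000 bp not drawn. All 4 lists have a tall mode at 350 to 400 bp, higher in both Flt3-ITD libraries, and a low mode between 1050 and 1150 bp.

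Across the 36821 regions called in all 4 libraries, no region passed in either direction (0%) when the log2 width was compared with limma (smallest adjusted p = 0.432). At an unadjusted p under 0.05, 1025 regions were wider in Flt3-ITD and 1496 in Smc3 del/+. Both Flt3-ITD libraries had the wider peaks in 5598 regions (15.2%) and both Smc3 del/+ libraries in 6947 (18.9%), and the median log2 difference was -0.03. The width of a region repeated poorly between replicates. Across regions, which are not independent, Pearson's r of log2 width was 0.289 in the Flt3-ITD pair, 0.255 in the Smc3 del/+ pair and from 0.254 to 0.268 across genotypes. The median absolute log2 difference was 0.39 and 0.45 within the genotypes and from 0.43 to 0.44 across them. At this spread the test cannot call even very large differences in single regions, so the count of 0 does not show that widths were alike.

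A wide peak was rarely wide in every library. Of the 36821 regions, 1878 (5.10%) were wide in all 4 libraries and 13920 (37.8%) in none. Regions wide in both Smc3 del/+ libraries and neither Flt3-ITD library numbered 1420 (3.86%), against 920 (2.50%) in the opposite direction. The region with the largest non-overlapping difference towards Flt3-ITD was chr6:116622417-116625575, with 2512 and 3108 bp of peak in Flt3-ITD, 188 and 508 bp in Smc3 del/+, 1778 and 1955 bp in control and 1211 and 926 bp in the combined genotype (log2 3.18 ± 0.59, limma adjusted p = 0.432). At chr2:19578797-19581000, Flt3-ITD alone was wide, with 2118 and 2204 bp against 288 to 471 bp in the other 6 libraries. At chr10:51248545-51249843, Flt3-ITD had 1159 and 1057 bp and Smc3 del/+ 184 and 98 bp.

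In the opposite direction, chr5:111561762-111562892 was wide in Smc3 del/+ alone, with 1131 and 834 bp against 118 to 427 bp in the other 6 libraries (log2 -2.93 ± 0.31, limma adjusted p = 0.432). At chr4:40668825-40670904, Flt3-ITD had 280 and 180 bp, Smc3 del/+ 1920 and 1650 bp, control 606 and 1299 bp and the combined genotype 1296 and 2000 bp. Flt3-ITD was the narrow genotype there, and at chr19:53963665-53966262, with 189 and 146 bp against 2524 and 903 bp in Smc3 del/+. None of these regions passed the test. The other 6 named by the rule were chr7:31626630-31628090, chr5:107445463-107447875 and chr2:124245444-124247150 towards Flt3-ITD and chr8:96830727-96832233, chr11:100275178-100276700 and chr7:132615138-132616742 towards Smc3 del/+, with log2 differences of 2.84 to 2.95 and of -2.74 to -2.72.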

How the data were processed

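ATAC-seq peak lists were deposited for 8 libraries, with a list of its own, 6 columns and no header for each library. The authors' deposited score, between 0.99 and 1, ranked or filtered peaks within a list, and its meaning was not given. The submitters' processing notes name Bowtie and mm9. The peak caller, its settings, the Tn5 offset and the treatment of duplicate reads were "not given in the sources used here", and read depth is unknown.

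Repeated intervals were removed (155 to 229 per library), autosomal peaks of the 4 libraries compared were merged at an overlap of 1 bp or more, and a region counted as called where a library had a peak. Widths (log2 of bases under peaks) and peaks per 1 Mb window (by the start of the peak) were tested with limma 3.58.1 in R 4.3.3, the latter with a variance trend and robust moderation. Other values used Python 3.11.15, numpy 2.4.6, pandas 2.3.3 and scipy 1.17.1, with exact two-sided permutation tests over 6 splits of 4 libraries and exact (Clopper-Pearson) 95% intervals that cover counting error only. The fits were tested on simulated data. Planted window differences were mostly recovered, but all simulated windows took their spread from a common rule. Their recovery is thus no check of how the spread of windows was modelled. The width fit estimated planted differences correctly but called none at the real spread. Tables of GRCm38 genes and promoters were not used because the builds differ, so gene lists, cell type markers and sequences were not analysed here.

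The comparison, its members and its lists were chosen with earlier results of these data known. The rule named 12 regions per direction by score and width, 6 per direction by width difference and the 3 windows per direction with the most one-genotype regions. The window test, its 8 named windows per direction (largest differences past the threshold) and the 700 bp limit were chosen after the data were seen.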

Additional observations from a re-analysis of the deposited data

How the results depend on the processing

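The Flt3-ITD-only and Smc3 del/+-only counts were 2716 and 2233 among the upper 50% of peaks by score and 2655 and 643 at the highest score alone. Both filters also left out lower-scored peaks of the other genotype, so these regions need not lack such peaks. Leaving out 1 library, which loosens the rule to 1 library of that genotype, gave from 8757 to 13872 and from 6985 to 11973 regions. The other alternatives (equal number of peaks, peaks of at least 300 bp, merging within 1 kb, cover of 25%) stayed within 1.5 times. The difference between combined and control libraries kept its sign, and the 2 groups did not overlap, in each alternative except the highest score alone for Smc3 del/+-only regions. For Flt3-ITD-only regions it ran from 15.4 to 18.7 points without a library. For Smc3 del/+-only regions it ran from -21.7 to -14.9 points without a library and was -18.0 points among the upper 50% by score and -4.04 points at the highest score alone, where the control libraries (57.9% and 31.9%) lay on both sides of the combined ones. The difference in bases covered ran from -0.464 to 1.14 Mb without a library, and was -0.464 Mb without Flt3-ITD replicate 1 and -0.00135 Mb without Smc3 del/+ replicate 1.

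Windows with more peaks in Flt3-ITD and in Smc3 del/+ numbered 71 and 104 with no variance trend, 57 and 78 with no filter on peaks per window (2314 windows tested), 94 and 104 among the upper 50% by score, 82 and 88 among peaks of at least 300 bp, and 209 and 68 unscaled. They ran from 63 to 117 and from 72 to 116 without a library. Unscaled and with moderation that was not robust, 0 and 0 passed (smallest limma adjusted p = 0.0835, 453 windows at an unadjusted p under 0.05). These window alternatives were chosen after the data were seen, and the cause was not tested. Every named window kept its sign in each alternative that tested it. No region passed the width test under any alternative, with limma adjusted p no smaller than 0.405.

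A replicate block gave 105 and 117 windows, 0 regions by width, and by construction the same 5164 and 4680 regions. Replicate numbers did not pair the libraries: deviations of same-numbered libraries correlated at r = 0.0110 across region widths and r = 0.0397 across windows. The unknown read depth limits every missing call.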

Other observations

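Windows that differed between Flt3-ITD and Smc3 del/+ in peak number lay next to each other in places. The 144 windows with more peaks in Flt3-ITD formed 22 runs of at least 2 adjacent windows, the longest of 3 windows at 38 to 41 Mb of chromosome 1, 52 to 55 Mb of chromosome 6, 10 to 13 Mb of chromosome 8 and 32 to 35 Mb of chromosome 14 (mm9). In the run on chromosome 6, Flt3-ITD held 129 and 121 peaks, Smc3 del/+ 94 and 89, control 131 and 113 and the combined genotype 171 and 157. In the run on chromosome 14 the values were 113 and 107, 81 and 80, 115 and 106, and 133 and 141. Smc3 del/+ was the lowest genotype in both runs. The 161 windows with more peaks in Smc3 del/+ formed 15 such runs, the longest of 4 windows at 143 to 147 Mb of chromosome 6 and 16 to 20 Mb of chromosome 11. The run on chromosome 11 held 70 and 65 peaks in Flt3-ITD, 91 and 89 in Smc3 del/+, 100 and 77 in control and 100 and 97 in the combined genotype, so that Flt3-ITD was the lowest there. Most called windows had no neighbour called in the same direction, 96 of the 144 and 126 of the 161. How many runs scattered windows would give was not determined. Neighbouring windows are not independent, and no test of the runs was made.

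Over whole chromosomes, the Flt3-ITD share of one-genotype regions lay between 46.2% on chromosome 18 (152 Flt3-ITD-only and 177 Smc3 del/+-only regions) and 60.4% on chromosome 17 (268 and 176). Distances between genotype means were taken on log2 peaks scaled to list length. The control mean was nearer to Flt3-ITD than to Smc3 del/+ in 94 of the 144 windows with more peaks in Flt3-ITD and nearer to Smc3 del/+ in 68 of the 161 in the opposite direction. Over all windows tested it was nearer to Flt3-ITD in 56.5%. The combined mean, so scaled, was nearer to Flt3-ITD in 88 of the 144 and in 118 of the 161, against 61.2% of all windows. Unscaled, the median peaks of the combined libraries were 55 and 52.5 in the 144 windows and 35 and 34 in the 161. These lay above the unscaled medians of Flt3-ITD (49 and 46, then 26 and 24) and of Smc3 del/+ (35.5 and 35, then 30 and 33).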
